A study of Mus musculus with 2 samples.

Results

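The clustered replication-dependent histone genes are the genes of the Hist1, Hist2, Hist3 and Hist4 loci, which encode the linker histone H1 and the core histones H2A, H2B, H3 and H4. They were taken as all probes whose RefSeq accession belongs to a gene with a current or former symbol that starts with Hist1h, Hist2h, Hist3h or Hist4h. The RefSeq table lists 70 such genes, of which 47 had a matched probe, among 20660 named genes on the array, and 52 of 55680 probes belonged to them. The remaining 23 genes of the table were not analysed here. By class, the array held 6 of 6 H1 genes, 14 of 20 H2A genes, 11 of 19 H2B genes, 7 of 12 H3 genes and 9 of 13 H4 genes. Genes are called by their current symbols, with the former ones where it helps.

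RNA was measured from pre CFU-E, the progenitors just before the colony forming unit-erythrocyte, sorted from bone marrow of adult mice on 7 markers: Lin-, c-Kit+ and Sca1-, with endoglin+ and CD150+, and with CD41Lo and FCgRII/III-/Lo. Both groups were C57BL/6 mice that received a single injection of 120 mg/kg of 5-FU, an inhibitor of thymidylate synthesis that damages dividing cells, 8 days before the sort. ESAM, an adhesion molecule of blood vessels and early blood progenitors, was intact in the WT group. The ESAM-KO group was homozygous for a knockout that is not restricted to a tissue, blood vessels included, so that it is not a model of loss in blood cells alone. Each group was 1 pool of 3 mice, amplified with a whole transcriptome kit and hybridised to 1 Agilent SurePrint G3 array in 1 colour. With 1 array for each genotype there is no replicate and no test. The errors given below are those of the scanner software for a spot, which cover neither the animals nor the sort nor the amplification.

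Intensities were well above background, by the scanner software's flag, for 57.3% of the spots in WT and 61.1% in ESAM-KO. The 75th percentile of the intensity was 201.4 in WT and 251.1 in ESAM-KO. Log2 ratios below are ESAM-KO over WT after each array was set to that percentile, which lowers every ratio by 0.32 on the log2 scale, and intensities are given unscaled, with WT before ESAM-KO where a pair stands alone. The median log2 ratio of the 12615 named genes above background on both arrays was -0.02 after this scaling, 0.30 without scaling and -0.15 with scaling to the median of the array. A gene counts as past the study's criterion when it differs by more than 2-fold. Where only 1 array was above background, the ratio is a bound against the dim array's own signal or its lowest signal well above background, whichever was higher. The Esam probe gave 27.4 in the WT and 20.6 in the ESAM-KO pool, at a log2 ratio of -0.73 with an error of 0.31, which is within 2-fold and close to the lowest signals above background, so that it is a weak check of the genotypes.

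Core histones form the octamer around which DNA is wrapped, and H1 binds the linker between octamers. Their clustered genes are transcribed mainly in S phase, when new DNA must be packaged, and their mRNAs lack introns and end in a stem-loop in place of a poly(A) tail, although some of these genes also give polyadenylated transcripts. Erythroid progenitors divide rapidly before they condense their chromatin and lose the nucleus, and histone mRNA is commonly read as a sign of S phase. Many genes of the core classes are near-identical copies, so that a probe can bind the cDNA of its relatives. The value of a single member is therefore uncertain. Intensities of different probes cannot be ranked against each other.

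The promoters of these genes hold short elements, some of them at different rates in different classes, and they are shown for the linker histones H1f2 and H1f4, which lay at opposite ends of their class, for H3c8, with the highest ratio among the H3 genes, and for the testis histone gene H2bc1, which faces H2ac1. Each is the RefSeq window on GRCm38.p6 from 250 bases before to 50 bases after the start of the gene, written 5′ to 3′ on the gene's own strand. Capitals mark the CCAAT element, the TATA element TATAAA, the octamer ATTTGCAT and the H1 element AAACACA, each on either strand.
H1f2, chr13:23738557-23738856 (+): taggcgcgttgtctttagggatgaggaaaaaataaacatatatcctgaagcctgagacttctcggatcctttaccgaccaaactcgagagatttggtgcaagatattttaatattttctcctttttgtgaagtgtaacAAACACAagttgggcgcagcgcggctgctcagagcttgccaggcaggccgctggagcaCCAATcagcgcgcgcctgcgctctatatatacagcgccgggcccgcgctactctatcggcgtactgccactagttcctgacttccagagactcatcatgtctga
H1f4, chr13:23622509-23622808 (-): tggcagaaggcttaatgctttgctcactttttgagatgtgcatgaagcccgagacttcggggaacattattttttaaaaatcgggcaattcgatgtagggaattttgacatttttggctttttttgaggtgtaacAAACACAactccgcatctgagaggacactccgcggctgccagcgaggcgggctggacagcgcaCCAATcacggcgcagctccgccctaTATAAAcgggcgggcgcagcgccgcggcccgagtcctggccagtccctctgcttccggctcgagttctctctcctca
H3c8, chr13:23535168-23535467 (+): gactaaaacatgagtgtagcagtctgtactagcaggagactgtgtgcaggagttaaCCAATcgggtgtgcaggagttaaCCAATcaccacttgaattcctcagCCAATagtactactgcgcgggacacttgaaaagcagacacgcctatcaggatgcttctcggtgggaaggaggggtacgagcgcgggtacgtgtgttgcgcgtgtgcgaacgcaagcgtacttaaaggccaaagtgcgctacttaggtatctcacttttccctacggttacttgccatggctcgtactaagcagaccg
H2bc1, chr13:23934107-23934406 (-): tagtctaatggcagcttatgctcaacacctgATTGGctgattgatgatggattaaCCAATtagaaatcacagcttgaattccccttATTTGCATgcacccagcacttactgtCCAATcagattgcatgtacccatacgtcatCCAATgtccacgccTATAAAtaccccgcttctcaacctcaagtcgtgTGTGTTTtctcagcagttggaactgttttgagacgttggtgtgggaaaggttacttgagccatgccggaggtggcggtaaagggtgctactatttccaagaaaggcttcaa

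A promoter was listed for 62 of the 70 genes and for 42 of the 47 on the array. CCAAT, on either strand, stood in all 6 windows of H1 genes, all 18 of H2A genes, all 16 of H2B genes and all 10 of H3 genes, but in 3 of 12 of H4 genes, compared with 37.9% of 27025 promoters of all genes. The octamer was found in 7 of 18 windows of H2A genes and 6 of 16 of H2B genes and in 0 windows of the other classes, against 1.75% of all promoters. AAACACA stood in 5 of 6 windows of H1 genes, in 2 of 18 of H2A genes, in 2 of 16 of H2B genes, the printed H2bc1 window among them, and in 0 of H3 and H4 genes, against 7.14% of all promoters. TATAAA stood in 56.5% of the windows of clustered histone genes and in 14.2% of all. The windows of H2A and H2B genes that lie head to head overlap, so that a single site can be counted in both classes. The octamer was in both windows of H2ac1 and H2bc1, of H2ac12 and H2bc12, and of H2ac8 and H2bc8. These are matches of letters and not tested sites. H1f2 and H1f4 hold the same H1 element and CCAAT element, and TATAAA as spelled is in the window of H1f4 and not of H1f2.

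Most clustered histone genes differed by less than 2-fold between the pre CFU-E of WT and ESAM-KO mice. Of the 47 genes, 41 could be measured on both arrays, 3 only in WT and 3 on neither. Of the 44 genes with a ratio, 4 were past 2-fold, or 1 higher and 3 lower in ESAM-KO, whereas among all named genes with a ratio 15.4% were past 2-fold, 6.99% higher and 8.43% lower. Lower genes made up 54.7% of all named genes past 2-fold, a share that was 28.8% without scaling, 66.8% after scaling to the array median and 67.3% after normexp. The gene that was higher was the H2A gene H2ac6, and those that were lower were the H2B genes H2bu2 and H2bc23 and the H3 gene H3c1, all 3 of them bounds. All 4 genes were dim, between 14.1 and 42.9 in WT. After normexp background correction with quantile normalization none was past 2-fold, with log2 ratios of 0.88, -0.57, -0.64 and -0.40. The offset of 50 in that correction draws the ratios of such dim genes towards 0. The correction therefore cannot decide whether these 4 differences hold.

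**Figure D1:**
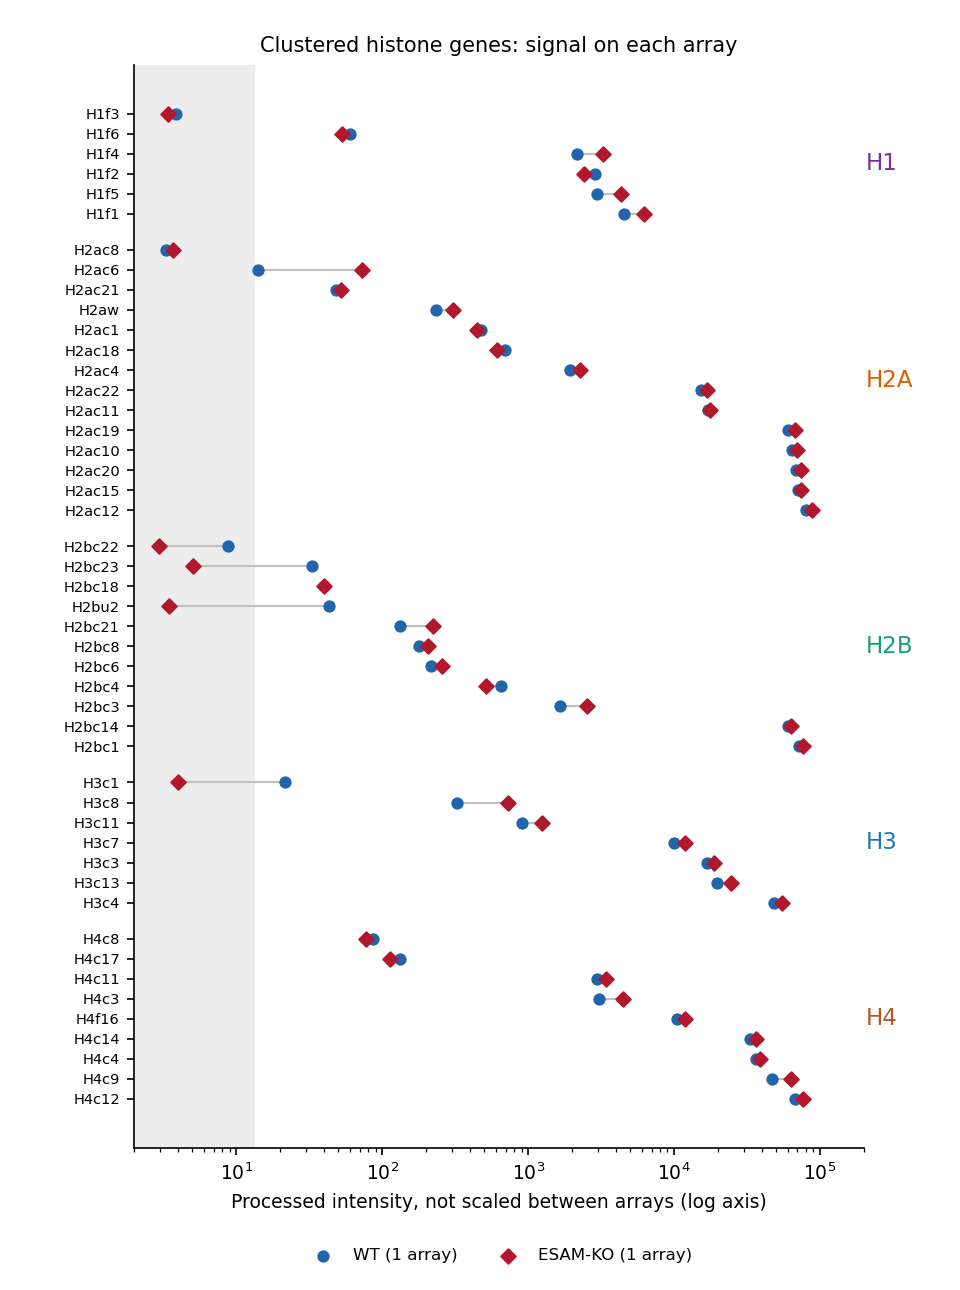
Processed intensity of the 47 clustered histone genes on the WT array (circles) and the ESAM-KO array (diamonds), 1 array each, on a log axis and not scaled between arrays, grouped by class. The grey band ends at 13.2, the lowest intensity flagged as above background in ESAM-KO. The circle and the diamond of a gene lie close together over most of the range, and the widest gaps are those of dim genes.

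The median log2 ratio of the 41 genes above background on both arrays was -0.15, with quartiles of -0.24 and 0.07, compared with -0.02, -0.38 and 0.34 for all named genes. With the 3 bounds the median was -0.18. Of the 41, 11 had a ratio above 0, against 48.5% of all named genes. This direction rested on the scaling, since without it the median was 0.17 and 33 of the 41 genes read higher in ESAM-KO, against 71.6% of all genes. Under all 6 other scalings and corrections between the arrays, the median of the clustered histone genes stayed below that of all genes. Scaling to the array median or to probes above background, or none, shifts both medians alike and could not change this. Quantile normalization, cyclic loess and normexp could, and they made the gap smaller. The median of the clustered histone genes minus that of all genes was then -0.04, -0.08 and -0.06, against -0.13 with the main scaling. The gap was 0.13 or less on the log2 scale. The scanner error of 0.20 for a typical member belongs to the ratio of a gene and not to a median. It therefore cannot decide whether this gap is within error.

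The intensity was above 10000 on both arrays for 18 of the 47 genes, which does not rank their RNA against other genes, and probes that bind each other's relatives can show the same signal in several members. These 18 genes had log2 ratios between -0.26 and 0.12, with a median of -0.19. The 535 named genes of such intensity had a median of -0.08, with quartiles of -0.23 and 0.14, and 0.187% of them were past 2-fold. Without scaling, all 18 read higher in ESAM-KO, by 0.06 to 0.44 on the log2 scale. When the genes above background on both arrays were divided by intensity, 27 of the 41 members fell in the brightest quartile. Of these 27, 23 lay between the quartiles of all genes in that range, -0.25 and 0.28, and 0 were past 2-fold, against 2.63% of all genes in that range. In the next quartile down, 0 of 4 lay between the quartiles of all genes, 3 were below and 1 was above, and the median of these 4 was -0.45, against -0.03 for all genes there. In the remaining quartiles, 3 of 6 and 2 of 4 members lay between the quartiles of all genes.

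**Figure D2:**
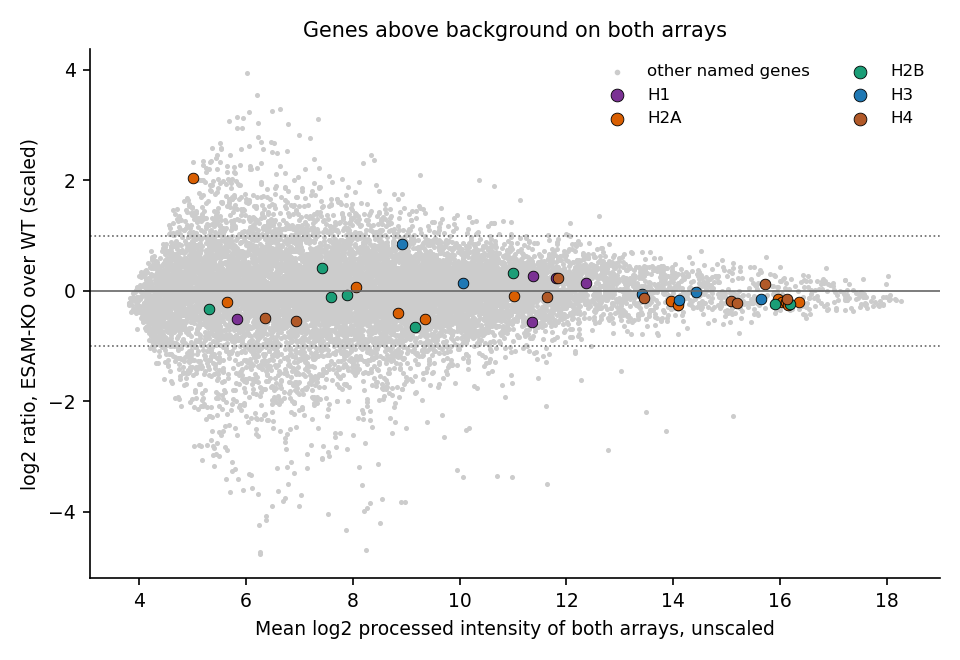
Log2 ratio of ESAM-KO over WT after scaling to the 75th percentile against the mean unscaled log2 intensity, for the named genes above background on both arrays. Grey points are other genes, coloured points the 41 clustered histone genes by class, and dotted lines mark 2-fold. The 18 histone genes above 10000 on both arrays lie between -0.26 and 0.12, with a median of -0.19, and all 18 lie above 0 without scaling.

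Linker histone genes ranged from -0.57 to 0.27, all within 2-fold. H1f1 (Hist1h1a) gave intensities of 4498 for WT and 6189 for ESAM-KO, with a log2 ratio of 0.14 and an error of 0.20. H1f4 (Hist1h1e) read 2176 and 3261, a log2 ratio of 0.27, and H1f5 (Hist1h1b) read 2945 and 4294, a log2 ratio of 0.23. H1f2 (Hist1h1c) went the other way, from 2848 to 2399, a log2 ratio of -0.57, below 0 under each of the 12 alternatives and between -0.70 and -0.25. These 4 genes encode somatic linker histones. H1f6, the testis linker histone, read 60.5 and 53.2, with a log2 ratio of -0.50, and H1f3 was below background on both. The median of the 5 measured H1 genes was 0.14, and it was above 0 under each scaling, from 0.01 with median scaling to 0.46 without scaling. It was -0.18 when dim probes were not filtered out and H1f3 entered.

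The H2A genes were even, apart from 1 gene. Of 13 genes above background on both arrays, 12 had log2 ratios between -0.50 and 0.07, and the class median was -0.20, or 0.12 without scaling. H2ac12 (Hist1h2ah) read 80646 and 87463, at a log2 ratio of -0.20, and H2ac10, H2ac15, H2ac19 and H2ac20 read between 59950 and 70896 in WT with ratios between -0.26 and -0.15. The ratios of these bright genes were thus close to each other. H2ac11 and H2ac22 read 17006 and 15252 in WT and 17670 and 16728 in ESAM-KO, with -0.26 and -0.19. Among dimmer genes, H2ac4 was at -0.09, H2ac21 at -0.20 and H2aw, in the Hist3 locus, at 0.07, with intensities of 232.0 and 302.7. The lowest was H2ac18 (Hist2h2aa1), at 691.7 and 608.2, with a log2 ratio of -0.50, and H2ac19 (Hist2h2aa2), its duplicate in the Hist2 locus, was at -0.15. The exception was H2ac6 (Hist1h2ac), which read 14.1 in WT and 72.8 in ESAM-KO, 4.14-fold higher, with a log2 ratio of 2.05 and an error of 0.34. Its WT signal was close to 12.6, the lowest that was flagged as above background there. H2ac8 was below background on both arrays.

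Of 11 H2B genes, 8 were measured on both arrays and within 2-fold, and 2 were bounds past 2-fold lower. H2bc14 (Hist1h2bm) read 59832 and 62966, with a log2 ratio of -0.24. H2bc4 (Hist1h2bc) was the lowest of the 8 measured genes, at 645.8 and 514.1, a log2 ratio of -0.65, and H2bc21 (Hist2h2be) the highest, at 133.1 and 221.9, a log2 ratio of 0.42. H2bc3 was also above 0, at 1640 and 2545, with 0.32, so that 2 of 8 measured H2B genes were above 0 and 6 below, and without scaling 6 were above 0. Between them lay the dim genes H2bc6 and H2bc8, at -0.07 and -0.11, and H2bc18, at 39.9 and 39.6 with -0.33. The class median was -0.17, or 0.15 without scaling. Past 2-fold were H2bu2 (Hist3h2ba), at 42.9 in WT and 3.43 in ESAM-KO, at least 4.07-fold lower, and H2bc23 (Hist1h2bq), at 33.2 and 5.05, at least 3.14-fold lower. Both were above background in WT only. H2bc22 was below background on both arrays. The gene of the testis histone H2B, H2bc1 (Hist1h2ba), read 72262 and 76816, and whether its probe reads somatic H2B mRNA was not tested, since the probe's sequence was not used here.

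The 6 measured H3 genes were within 2-fold, with a median log2 ratio of -0.04. It was above 0 with quantile normalization, with cyclic loess, with normexp and without scaling, at 0.03, 0.01, 0.03 and 0.28. H3c4 (Hist1h3d) read 48402 and 54661, with a log2 ratio of -0.14, and H3c3 (Hist1h3c) was the lowest measured, with -0.16. H3c7 read 10015 and 11951 with -0.06, H3c13 read 19804 and 24463 with -0.01, and H3c11 read 910.8 and 1251 with 0.14. The 4 H3 genes above 10000 thus lay between -0.16 and -0.01. H3c8 (Hist1h3g) was the highest, from 322.5 to 728.8, a log2 ratio of 0.86 with an error of 0.20, within 2-fold after scaling and past it without, at 1.18. Across the other alternatives its ratio stayed between 0.73 and 0.88. H3c1 (Hist1h3a) read 21.5 in WT and 3.97 in ESAM-KO, below background, at least 2.04-fold lower. This bound was within 2-fold without scaling and with cyclic loess, at -0.71 and -0.95.

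All 9 H4 genes were above background on both arrays and none was past 2-fold. Their median was -0.15, or 0.17 without scaling. H4c12 (Hist1h4k) read 67421 and 75986, with a log2 ratio of -0.15. H4c4 read 36266 and 38729 with -0.22, and H4f16, the gene of the Hist4 locus, read 10462 and 11903 with -0.13. H4c11 read 2947 and 3413 with -0.11. These 4 genes were all below 0, and all above 0 without scaling. H4c3 (Hist1h4c) was the highest, from 3047 to 4462 with a log2 ratio of 0.23, and H4c9 was the only other one above 0, at 0.12. The lowest were the dim genes H4c17, at 132.6 and 113.3 with -0.54, and H4c8, at 86.2 and 76.9 with -0.48. The 9 genes make the same protein, and their log2 ratios ran from -0.54 to 0.23, compared with an error of 0.20 for most of them.

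**Figure D3:**
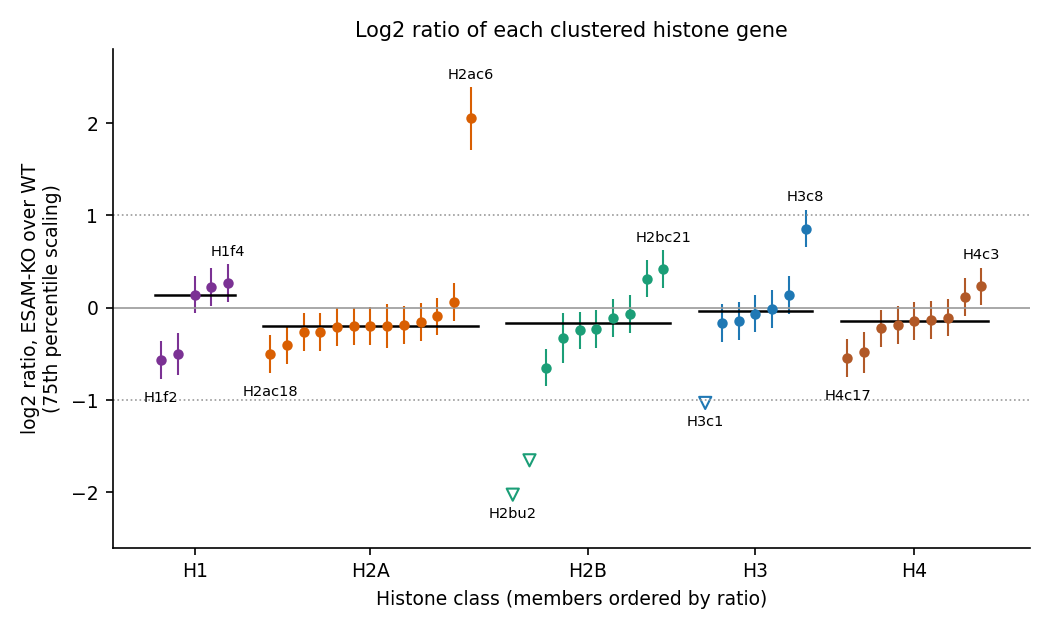
Log2 ratio of ESAM-KO over WT after scaling to the 75th percentile for the 44 clustered histone genes with a ratio, by class. Filled points have the scanner software's error, open triangles are bounds for genes above background in WT only, black lines are class medians of the measured genes, and dotted lines mark 2-fold. H2ac6 stands apart at 2.05, and without scaling all filled points and their medians move up by 0.32.

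Repeat measurements of the same gene were close. Of the 5 genes with 2 probes, 4 had both above background on both arrays. The probes of H4c12 gave log2 ratios of -0.15 and -0.12 and those of H2ac15 -0.26 and -0.21. Those of H4c14 gave -0.19 and -0.02, at intensities in WT of 33158 and 545.7. The probes of H4c9 differed in sign, with 0.12 at 46660 in WT and -0.14 at 1396, a gap under the combined scanner errors. The second probe of H4f16 was below background on both arrays.

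The loci of the genome had similar medians. The 31 measured genes of the large Hist1 locus had a median log2 ratio of -0.15, with 9 above 0, and the 8 of the Hist2 locus -0.19, with 1 above 0. Both medians were above 0 without scaling, at 0.17 and 0.13. From the Hist3 and Hist4 loci only H2aw, at 0.07, and H4f16, at -0.13, were measured. The search for pairs used the 62 genes with a listed promoter. It found 10 pairs of an H2A and an H2B gene that lie head to head, with starts within 500 bases of each other. A pair that includes a gene without a listed promoter could not be found, and the measured genes H2bc4 and H2bc21 had none. Of the 10 pairs, 3 had both genes on the array. Among these, only H2bc1 and H2ac1 were both measured, at -0.23 and -0.40, or 0.09 and -0.09 without scaling. In the other 2 such pairs, H2ac22 read 15252 and 16728 beside H2bc22 below background, and H2bc8 read 178.7 and 206.7 beside H2ac8 below background.

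The lists of genes that work with the clustered histones had medians above 0 after 75th percentile scaling. For comparison, 15.4% of all named genes with a ratio were past 2-fold, 6.99% higher and 8.43% lower. The histone variants outside the clusters, which are made throughout the cell cycle or in special chromatin, had a median of 0.06 over 12 measured genes, with 0 past 2-fold. It fell below 0 with median scaling, at -0.07. H2az1, which encodes H2A.Z, read 18478 and 27815, a log2 ratio of 0.27, and Cenpa, the H3 variant of centromeres, read 934.8 and 2036, with 0.80. H3f3a and H3f3b, the genes of H3.3, were at -0.12 and -0.02, beside -0.04 for the median of the clustered H3 genes.

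The 18 measured genes of histone gene transcription and 3′ processing had a median of 0.27, with 2 past 2-fold higher and 2 lower. Slbp, which encodes the protein that binds the stem-loop of histone mRNA, read 1337 and 2025, with a log2 ratio of 0.28, and its second probe gave 0.81. Past 2-fold were Ccne1, cyclin E1, with 1.57 and 1.63 at its probes, and Npat, the activator of histone genes downstream of cyclin E, which was dim at 29.4 and 77.9 with 1.09. Npat was within 2-fold with median scaling, quantile normalization and normexp, at 0.96, 0.99 and 0.34. The offset of normexp draws the ratio of so dim a gene towards 0. Hinfp, which activates H4 genes, was at -1.77, but its dimmer probe read 1.03, and the scaffold of the cleavage complex, Sympk, was at -1.39.

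The 32 genes of S phase and DNA replication were all measured, with a median of 0.27 and 20 above 0. Of all named genes above background on both arrays, 48.5% were above 0, and of those with a ratio 6.99% were past 2-fold higher. In this list 2 were past 2-fold, both higher. These were Tyms, thymidylate synthase and the enzyme that 5-FU blocks, at 46.8 and 153.9 with 1.40, and Mcm10, at 196.3 and 629.3 with 1.36. Tyms was within 2-fold with normexp, at 0.81, where the offset draws the ratios of dim genes towards 0. Chaperones and nucleosome assembly factors had a median of 0.09 over 20 genes and 0 past 2-fold, and G2 and mitosis genes one of 0.14 over 17 genes and 0 past 2-fold. The chaperone median was -0.04 with median scaling. After 75th percentile scaling, the median of the core histone genes was below that of the S phase list, at -0.16 against 0.27. Scaling to the median or to probes above background, or none, shifts both medians alike and could not change this order. Quantile normalization, cyclic loess and normexp could, and the order was the same under them. The medians come from 2 arrays and were not tested against each other.

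**Figure D4:**
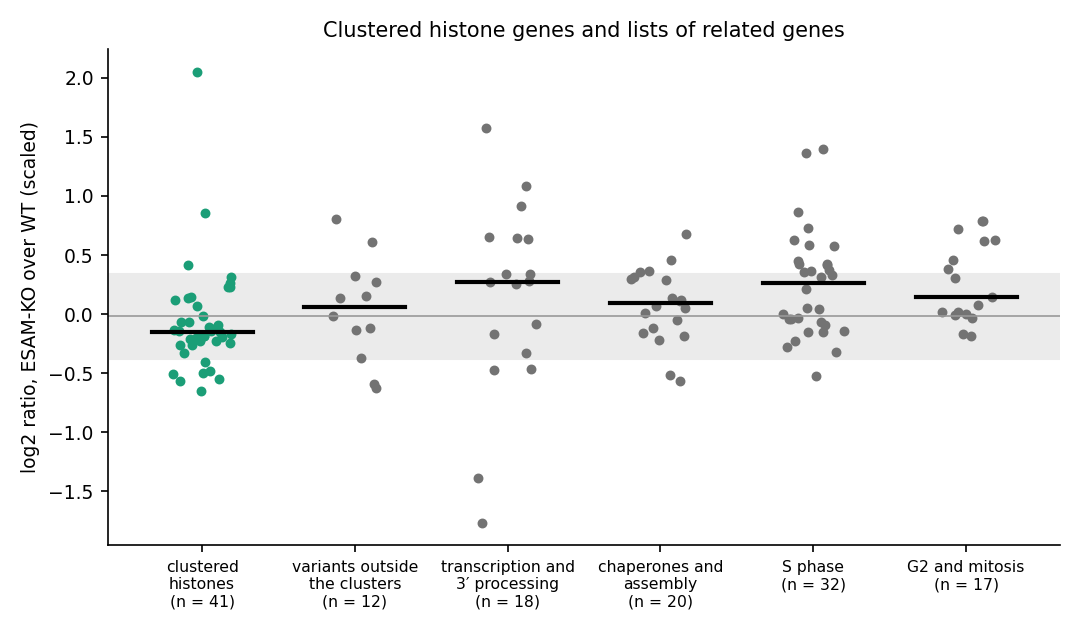
Log2 ratio of ESAM-KO over WT after scaling to the 75th percentile for measured genes of each list, with black bars at the medians. The grey band spans the quartiles of all named genes, -0.38 and 0.34, and the grey line is their median. The clustered histone genes centre at -0.15 and the S phase list at 0.27, and all lists move up by 0.32 without scaling.

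**Figure D5:**
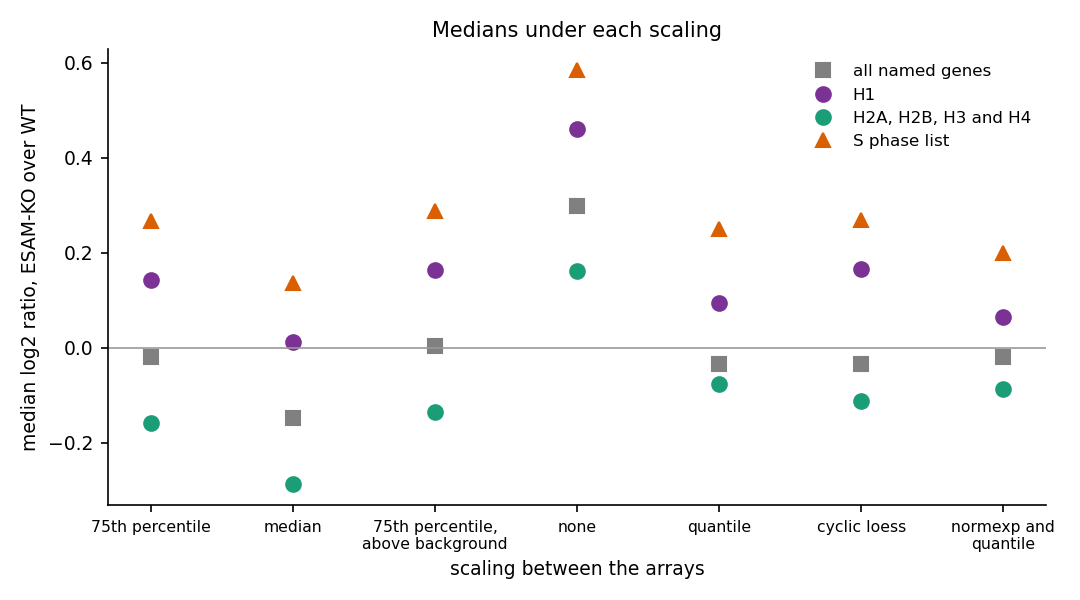
Median log2 ratio of ESAM-KO over WT for all named genes, the H1 genes, the core histone genes and the S phase list (y axis) under 7 ways to set the arrays against each other (x axis). The order of these 4 medians is the same under each scaling. Only quantile normalization, cyclic loess and normexp could change it, since the others shift every measured ratio alike. The median of the core histones is above 0 without scaling and below 0 under the others.

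The sorted cells carried erythroid genes, with 12 of 12 markers above background on both arrays, among them Gata1 and Epor. Of the sort markers, Kit read 3414 and 3326, and Slamf1, which encodes CD150, read 17.8 and 23.0. Among the 6 sort markers with a ratio, 1 was past 2-fold, Ly6a (Sca1), at least 5.79-fold lower. Neutrophil markers were also above background, 11 of 11 in WT and 10 of 11 in ESAM-KO, and differed between the 2 arrays. All 11 of them were past 2-fold lower in ESAM-KO, against 8.43% of all named genes with a ratio. Their summed intensity was 59933 in WT and 10045 in ESAM-KO. Of 8 B cell markers, 5 were past 2-fold lower, with sums of 612.0 and 235.2, and 6 of 12 erythroid markers were past 2-fold lower. Their part in the histone values was not tested, and in bulk RNA fewer cells of a type and less RNA per cell cannot be told apart.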

How the data were processed

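Pre CFU-E from WT and ESAM-KO mice were measured on 1 array each, and samples were grouped by the genotype in the labels. The authors deposited the scanner output of Agilent Feature Extraction 10.10.1.1, which gives for each spot an intensity after subtraction of background and detrending, its error, and flags. The deposited series table holds this intensity rounded, with differences of at most 0.497%, and neither is scaled between arrays. The methods name a 2-fold criterion and speak of normalizing the values, but describe no method of scaling.

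Control spots and 254 outlier spots were left out. Log2 intensities were averaged over the spots of a probe, and each array was set to its 75th percentile. A probe counted as above background if the scanner software flagged over 50% of its spots. Accessions were matched without versions to RefSeq names of GRCm38.p6, and a gene was represented by its probe of highest mean signal. The error of a ratio combines the scanner errors of both arrays.

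Named are the members past 2-fold, in each class the member of highest mean signal and those with the highest and lowest ratio, members whose probes differ in sign, Esam, Slbp, and list genes past 2-fold. Other genes were named after their values were seen. Members and gene lists were chosen with earlier results of these data known, and the promoter elements after the files were examined. Other lists were macrophage, mast cell and basophil, T and NK cell, megakaryocyte, and stem and early progenitor markers. Of their members with a ratio, 2 of 4, 2 of 3, 1 of 4, 4 of 8 and 1 of 6 were past 2-fold. In the same order, 1, 1, 0, 2 and 1 of them were higher in ESAM-KO. Among all named genes with a ratio, 15.4% were past 2-fold and 6.99% were past 2-fold higher. Apart from C1qa, Vcam1 and Vwf, the members of these lists past 2-fold were bounds.

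The alternatives were other scalings, the series table, normexp with an offset of 50 on median spot signals, no filter or a stricter one on dim probes, keeping outlier spots, averaging probes, a signal floor, and 3-fold and 4-fold criteria. Python 3.11.15, pandas 2.3.3, numpy 2.4.6, R 4.3.3 and limma 3.58.1 were used, and the calling of genes past 2-fold was tested on simulated data. The simulation changed only genes brighter than any member past 2-fold here, so that it tested neither dim genes nor bounds. The number of arrays limits the precision.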

Additional observations from a re-analysis of the deposited data

How the results depend on the processing

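Of the clustered histone genes, 4 were past 2-fold, 1 higher and 3 lower in ESAM-KO. Without scaling, 2 were higher, H2ac6 and H3c8. With normexp and quantile normalization, 0 were past 2-fold in either direction, 0 higher and 0 lower. This alternative adds an offset of 50, which draws the ratios of dim genes towards 0. With bounds left out, 1 was past 2-fold and 0 were lower. At 4-fold, 2 were past the criterion and 1 was lower. Leaving out scaling moved every median up by 0.32, by construction. The median log2 ratio was then 0.30 for all named genes, 0.17 for the clustered histone genes, 0.46 for H1, 0.12 for H2A, 0.15 for H2B, 0.28 for H3, 0.17 for H4 and 0.16 for the core histones together. It was 0.17 for the Hist1 locus, 0.13 for Hist2 and 0.28 for Hist3 with Hist4. It was 0.38 for variants outside the clusters, 0.59 for transcription and 3′ processing, 0.41 for chaperones, 0.58 for S phase and 0.46 for G2 and mitosis. Without the filter on dim probes, the H1 median was -0.18, as H1f3 entered. Apart from the median of all named genes, 164 of 180 medians under 12 alternatives moved by less than 0.20, the typical scanner error. That error belongs to a single ratio and not to a median. Of 309 values of single named genes, 273 moved by less than their own scanner error and 36 by more, and 0 genes past 2-fold changed direction. These counts are no measure of robustness, since several alternatives could hardly move such values. The stricter filter and the signal floor leave the ratio of a gene measured on both arrays unchanged. The series table holds the same intensities rounded. Scaling to the median or to probes above background shifts every measured ratio alike. No paired analysis was possible because there was a single array of each genotype. Signal over background left 3 of the 47 genes without a ratio.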
